A study of Mus musculus with 768 samples.

Results

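The wells described here are those of a single-cell RNA-seq data set of cancer-associated fibroblasts (CAFs) in which at least 1 read was assigned to Epcam, a gene used to mark epithelial cells. They were chosen by a measured value: among wells with at least 10000 reads outside the ERCC spike-ins and at least 1000 detected genes, a well with 1 or more Epcam reads was set against the wells with 0 Epcam reads of the same plate. Of 768 wells, 717 passed the depth rule, 371 from tumor 1 and 346 from tumor 2, and 56 of them held an Epcam read, 19 from tumor 1 and 37 from tumor 2. The other 661 wells, 352 from tumor 1 and 309 from tumor 2, held none.

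The cells came from mammary carcinomas of MMTV-PyMT mice (FVB/N-Tg(MMTVPyVT)634Mul/J), aged 14 weeks, in which the viral MMTV promoter drives the polyoma middle T oncogene in mammary epithelium. All wells carry this transgene and there was no untreated or normal-tissue group. Viable cells negative for EpCAM, CD45, CD31 and NG2 were sorted, so that cells with these proteins on their surface were meant to be removed and only mesenchymal cells kept. Each plate held the cells of 1 tumor, and the plate and the animal cannot be told apart. The tumor is the replicate, so every comparison below rests on 2 tumors and wells within a tumor are not replicates of it.

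Epcam encodes a transmembrane adhesion protein of epithelial cells, including those that line the mammary duct and the tumor cells that arise from them. A luminal mammary cell also makes keratins 8 and 18, E-cadherin and claudins, and in lactation it secretes caseins and whey proteins, while the outer basal layer makes keratins 5 and 14 and contractile proteins. Fibroblasts instead make collagens, Vim and Sparc, and mural cells, which wrap small vessels, make Rgs5 and Kcnj8. The comparison addresses whether a transcript of the gene whose protein was used for negative selection marks wells that also hold other epithelial transcripts.

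The Epcam gene (gene ID 17075) lies on chromosome 17 from 87635979 to 87651127 in GRCm38.p6. Wells with an Epcam read made up 5.12% of the wells of tumor 1 (3.11 to 7.88, an exact binomial 95% interval) and 10.7% of the tumor 2 wells (7.64 to 14.4). When each well was thinned at random to 50000 reads outside the spike-ins, which left out 37 shallower wells, 4 with and 33 without an Epcam read, the shares were 4.24% in tumor 1 (15 of 354 wells) and 7.98% in tumor 2 (26 of 326 wells). Intervals on shares cover counting error only, and reads here carry no molecular identifiers. The median depth was alike, with 221982 reads in the wells with Epcam of tumor 1 and 214139 in those of tumor 2, against 219864 and 198265 in the wells without, but the lower quartiles were 102535 and 100429 reads with Epcam against 154693 and 129997 without. In tumor 1 the 7 wells with 1 to 4 Epcam reads had a median of 108399 reads and the 10 with 5 to 49 a median of 307062, while in tumor 2 the 13 and 18 such wells had medians of 214139 and 221747.

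Epcam reads were spread unevenly over these wells. In tumor 1 the 19 wells held 1 to 568 Epcam reads with a median of 7, and in tumor 2 the 37 wells held 1 to 155 with a median of 17. On the RPKM scale, which divides by gene length and depth, the level in tumor 1 had a median of 15.2 and ran from 1.35 to 2142, and in tumor 2 it had a median of 42.7 and ran from 1.62 to 1654. A single well, P7, gave 72.4% of the 785 Epcam reads of tumor 1, while the highest well of tumor 2, K4, gave 15.2% of 1023. Just inside the rule stood 11 wells with exactly 1 Epcam read, 4 in tumor 1 and 7 in tumor 2, and just outside it stood the wells with 0. Of the 56 wells, 20 had 1 to 4 Epcam reads, 28 had 5 to 49 and 8 had 50 or more. These values chose the wells and carry no test. Of the 51 wells below the depth rule, 3 also had 1 Epcam read each and were not used.

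**Figure D1:**
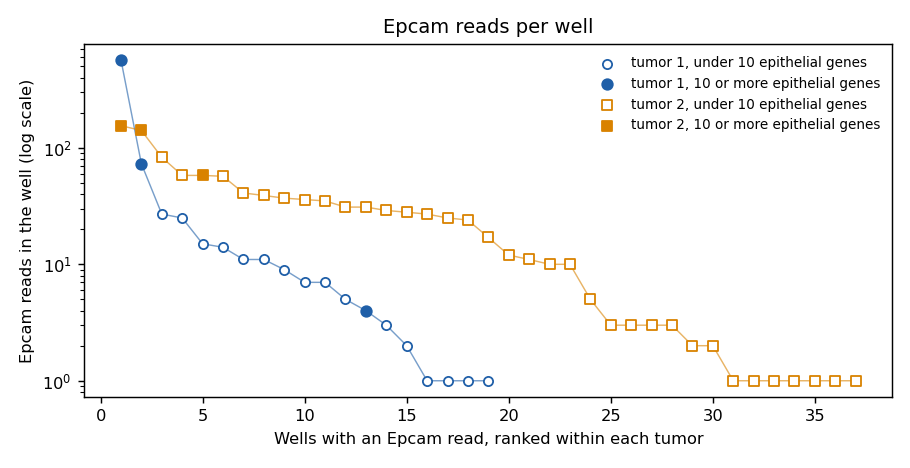
Epcam reads per well on a log axis, ranked within each tumor, for the 19 wells of tumor 1 and the 37 of tumor 2. Filled points are the wells with reads of at least 10 of 31 other epithelial genes (3 in each tumor), and they are not always the wells with most Epcam reads.

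A few wells stood apart from the others and are named before the comparisons, since several values rest on them. With reads of at least 10 of a list of 31 epithelial keratin and junction genes (Epcam left out), 9 of the 717 wells formed such a set: 6 with Epcam and 3 without. Among the wells with Epcam these were P7, K10 and F14 of tumor 1 and K4, B4 and M13 of tumor 2. They held 82.2% of the Epcam reads of tumor 1 and 34.6% of those of tumor 2. K4 and B4 also had 358.5 and 232.4 times as many reads outside the spike-ins as ERCC reads, where the next highest of the 717 wells had 32.2. They held only 129 and 224 ERCC reads, against a median of 24894.5 over the wells of tumor 2, and 46247 and 52060 other reads. Whether they received the same amount of ERCC as other wells was not tested. The set was defined after the data had been examined, so no test was made on it. No doublet caller was run.

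P7 was the well with the most Epcam. It held reads of 21 of the 31 epithelial genes, with 234 reads of Krt18, a keratin of simple epithelia, and 193 of Cdh1, which encodes E-cadherin. Its 20 mesenchymal genes together made up 691 CPM (reads scaled to a common library total), against a median of 49881 CPM in the wells of tumor 1 without Epcam. K10 had only 4 Epcam reads but 16 of the epithelial genes, with 315 reads of Cldn3 and 239 of Cldn4, both tight junction claudins, and a mesenchymal sum of 327 CPM. Low Epcam counts therefore did not go with low counts of the other epithelial genes in this well.

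F14 had a different set of epithelial transcripts. It held 73 Epcam reads, no read of Krt8 or Krt18, and 872 and 999 reads of Krt5 and Krt14, the keratin pair of basal mammary cells, with 8 of 12 listed basal genes read and a mesenchymal sum of 12709 CPM. A well of tumor 1 without any Epcam read, G21, had 1090 Krt5 and 418 Krt14 reads and 10 of the 12 basal genes. So F14 and G21 lay on either side of the rule. In all, Krt5 was read in 10 and Krt14 in 14 of the 352 wells of tumor 1 without Epcam.

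In tumor 2, K4 and B4 held reads of 27 and 29 of the 31 epithelial genes with only 46247 and 52060 reads outside the spike-ins, and 7219 and 8104 genes were detected in them. The 22 listed milk and secretory genes made up 94039 CPM in K4 and 61064 CPM in B4. Their mesenchymal sums were 692 and 2632 CPM. B4 also held reads of all 10 listed cell cycle genes. M13 held 58 Epcam reads and 17 of the epithelial genes together with a mesenchymal sum of 26103 CPM, 661 reads of the mural gene Rgs5 and reads of 5 immune genes, so transcripts of several cell types were read in the same well. Whether any of these wells received more than 1 cell was not tested.

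Most wells with Epcam held few other epithelial transcripts. In tumor 1, 12 of 19 wells with Epcam (63.2%) had reads of 0 to 2 of the 31 epithelial genes, 4 (21.1%) of 3 to 9 and 3 (15.8%) of 10 or more, against 317 (90.1%), 34 (9.66%) and 1 (0.284%) of 352 wells without. In tumor 2, 23 of 37 wells with Epcam (62.2%) had 0 to 2, 11 (29.7%) had 3 to 9 and 3 (8.11%) had 10 or more, against 236 (76.4%), 71 (22.98%) and 2 (0.647%) of 309 wells without. At least 3 of these genes were read in 36.8% of wells with Epcam and 9.94% of wells without in tumor 1, and in 37.8% and 23.6% in tumor 2. The 2 tumors gave the same direction, and with 2 pairs an exact paired permutation test cannot go below p = 0.5, so no test was made on a share.

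The number of other epithelial genes did not climb evenly with Epcam. Wells with 0 Epcam reads had a median of 1 of the 31 genes, wells with 1 to 4 Epcam reads a median of 1, and wells with 5 to 49 a median of 2. The 8 wells with 50 or more had a median of 14.5, and 5 of these 8 were among those with at least 10 genes, against 1 of 20 wells at 1 to 4 Epcam reads and 0 of 28 at 5 to 49. Across the 19 wells of tumor 1, Spearman's rho between Epcam CPM and the number of epithelial genes was 0.32, and across the 37 of tumor 2 it was 0.36. Between Epcam CPM and the summed CPM of the epithelial genes it was -0.006 in tumor 1 and 0.28 in tumor 2. The points of a tumor share a plate and differ in depth, and are given as a description.

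Of the junction genes, Cldn3 and Cdh1, chosen after their values had been seen, were read more often in wells with Epcam in both tumors. Cldn3 was read in 26.3% of wells with Epcam (9.15 to 51.2) and 3.12% of wells without (1.57 to 5.52) in tumor 1, and in 27.0% (13.8 to 44.1) and 9.39% (6.38 to 13.2) in tumor 2. Cdh1 was read in 21.1% (6.05 to 45.6) and 1.70% (0.63 to 3.67) of wells in tumor 1, and in 13.5% and 2.91% in tumor 2. At 50000 reads per well the Cldn3 shares were 22.2% and 2.08% in tumor 1 and 20.6% and 6.85% in tumor 2, and the Cdh1 shares were 22.2% and 0.893% in tumor 1 and 8.82% and 2.40% in tumor 2.

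The keratins of luminal cells, Krt8 and Krt18, which pair to form the filaments of simple epithelia, were read more often in wells with Epcam in both tumors. Krt8 was read in 10.5% of wells with Epcam and 5.11% of wells without in tumor 1, and in 16.2% and 4.85% in tumor 2. Krt18 was read in 10.5% and 5.97% of wells in tumor 1 and in 21.6% and 12.3% in tumor 2. In the summed reads the gap was wider in tumor 1, with Krt8 at 69.4 CPM in wells with Epcam and 1.60 CPM in wells without, than in tumor 2, with 8.08 and 1.75 CPM. Without the 9 wells that held at least 10 epithelial genes, Krt8 and Krt18 were read in 0 of 16 wells with Epcam of tumor 1 (0 to 20.6), and in 8.82% and 14.7% of 34 such wells of tumor 2, against 4.56% and 12.1% of the wells without. In the same subset Cldn3 stayed at 18.8% and 3.13% in tumor 1 and 20.6% and 9.12% in tumor 2. In tumor 1 the Krt8 and Krt18 reads of the wells with Epcam thus came from the epithelial-rich wells alone, whereas in tumor 2 both keratins, and in both tumors Cldn3, were also read outside them.

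Over the whole list of 31 genes, the share of wells with a read was higher in wells with Epcam in both tumors for 27 genes and lower in both for 0. After thinning, 26 were higher in both. Such counts were not made over all genes, for this list or for those below, so they have no background. Wells with Epcam had a median of 4367 detected genes against 4231.5 in wells without in tumor 1, and 4910 against 4485 in tumor 2. Jup, which encodes plakoglobin of desmosomes and adherens junctions, was read in most wells of either kind, at 78.9% and 67.3% in tumor 1 and 86.5% and 69.9% in tumor 2. F11r, a junctional adhesion molecule, was read in 21.1% and 9.66% and in 32.4% and 19.4%. Of 15 regulators of epithelial transcription and splicing, 10 were read more often in wells with Epcam in both tumors and 0 less often in both. Ehf, an ETS factor of epithelia, was read in 5.26% and 2.84% of wells in tumor 1 and in 21.6% and 6.80% in tumor 2, and Gata3, a factor of luminal cell fate, was read in 21.1% and 9.09% and in 32.4% and 14.2%. No read of Foxa1, a luminal forkhead factor, was found in any of the 717 wells.

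**Figure D2:**
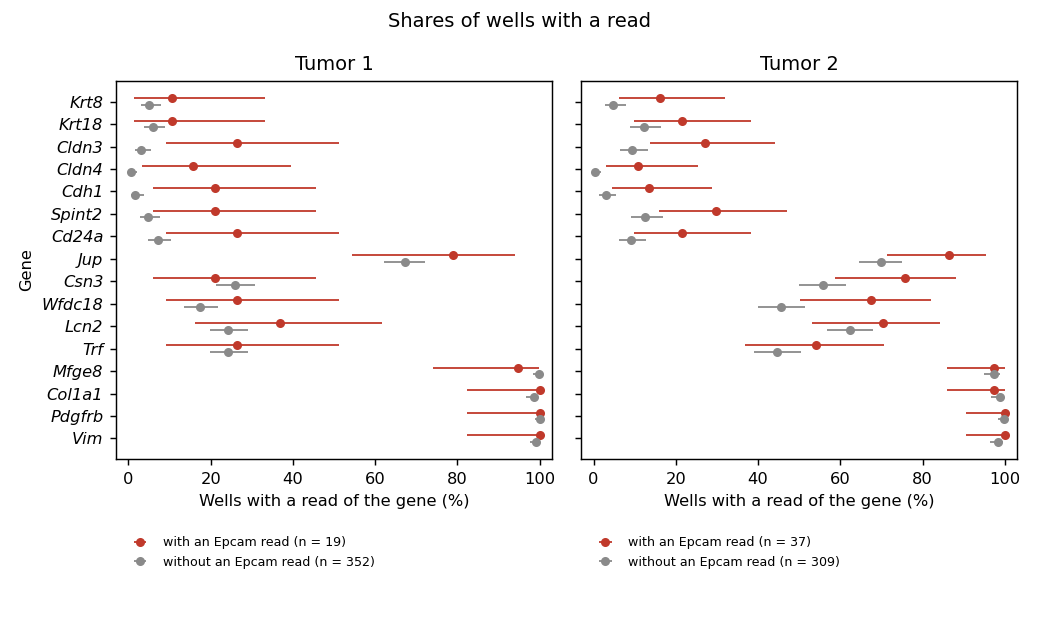
Percent of wells with at least 1 read of each of 16 genes, in wells with and without Epcam of each tumor; bars are exact binomial 95% intervals, which cover counting error only. Cldn3 and Cdh1 lie higher in wells with Epcam of both tumors, whereas Mfge8, Vim and Col1a1 lie near 100% in all groups.

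Milk and secretory transcripts differed from gene to gene. Across the wells with Epcam, rho between Epcam CPM and the summed CPM of the 22 genes was 0.54 in tumor 1 and 0.18 in tumor 2, and with the number of these genes read it was 0.57 and 0.32, as a description. Csn3, which encodes kappa-casein, was read in 21.1% of wells with Epcam and 25.9% of wells without in tumor 1, and in 75.7% (58.8 to 88.2) and 55.7% (49.9 to 61.3) in tumor 2. Wells of tumor 2 thus held a Csn3 read more often than wells of tumor 1 with or without Epcam. Wfdc18, a whey acidic protein family gene, was read in 26.3% and 17.3% of wells in tumor 1 and 67.6% and 45.6% in tumor 2. Lcn2, which encodes the iron-binding lipocalin 2, was read in 36.8% and 24.1% and in 70.3% and 62.5%. Of the 22 listed genes, 8 were read more often in wells with Epcam in both tumors and 1 less often in both, Mfge8, a milk fat globule gene that fibroblasts also make, at 94.7% and 99.7% in tumor 1 and 97.3% and 97.4% in tumor 2. No read of Csn2, which encodes beta-casein, or of Glycam1 was found in the 717 wells.

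The summed milk reads of tumor 1 rested on few wells. Csn3 stood at 1007 CPM in the summed wells with Epcam of tumor 1 and 26.2 CPM in the wells without, but 97.7% of those reads came from G24, a well with 15 Epcam reads, 8 of the 31 epithelial genes and 4137 reads of Csn3. In tumor 2 Csn3 was at 644 and 313 CPM, and the well with most, K4, held 43.4% of the Csn3 reads of the wells with Epcam. G24 also held 90.3% of the reads of Trf, which encodes transferrin, in the wells with Epcam of tumor 1, whereas in tumor 2 the highest well for Trf, C11, held 33.4%. The median over wells of the summed milk genes was 1721 CPM with and 1667 CPM without Epcam in tumor 1, and 2214 and 1594 CPM in tumor 2, a far smaller gap than in the summed reads.

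The 12 basal and myoepithelial genes did not follow Epcam in the same way in the 2 tumors. In tumor 1, 8 were read more often in wells with Epcam and 4 less often, and in tumor 2 these numbers were 2 and 7. In both tumors alike, 1 gene was read more often and 1 less often. Krt5 and Krt14 were read in 1 of 19 wells with Epcam in tumor 1, F14, and in 0 of 37 in tumor 2 (0 to 9.49). In the wells without, Krt5 was read in 2.84% in tumor 1 and 2.27% in tumor 2, and Krt14 in 3.98% and 1.94%. F14 gave the most basal reads of the wells with Epcam, and the wells with at least 10 epithelial genes held 39.8% of the basal reads of the wells with Epcam of tumor 1 and 0.307% of those of tumor 2.

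Mesenchymal transcripts were read in nearly all wells with Epcam. Vim, an intermediate filament gene of mesenchymal cells, was read in 100% of the wells with Epcam of both tumors, and in 99.1% and 98.4% of the wells without. Col1a1, a fibrillar collagen chain of fibroblasts, was read in 100% and 98.6% of wells in tumor 1 and in 97.3% and 98.7% in tumor 2. Pdgfrb, a receptor of fibroblasts and mural cells, was read in every well with Epcam. The median sum of the 20 mesenchymal genes was 56352 CPM with and 49881 CPM without Epcam in tumor 1, and 45930 and 43473 CPM in tumor 2. Of the 56 wells, 3 had a mesenchymal sum below that of every well without Epcam of their tumor, 2 in tumor 1 and 1 in tumor 2. Sums of Sparc, a matricellular gene, lay at 12237 and 12110 CPM in tumor 1 and 11428 and 10339 CPM in tumor 2. Across wells with Epcam the mesenchymal sum and Epcam CPM had a rho of -0.24 in tumor 1 and -0.52 in tumor 2, again as a description.

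**Figure D3:**
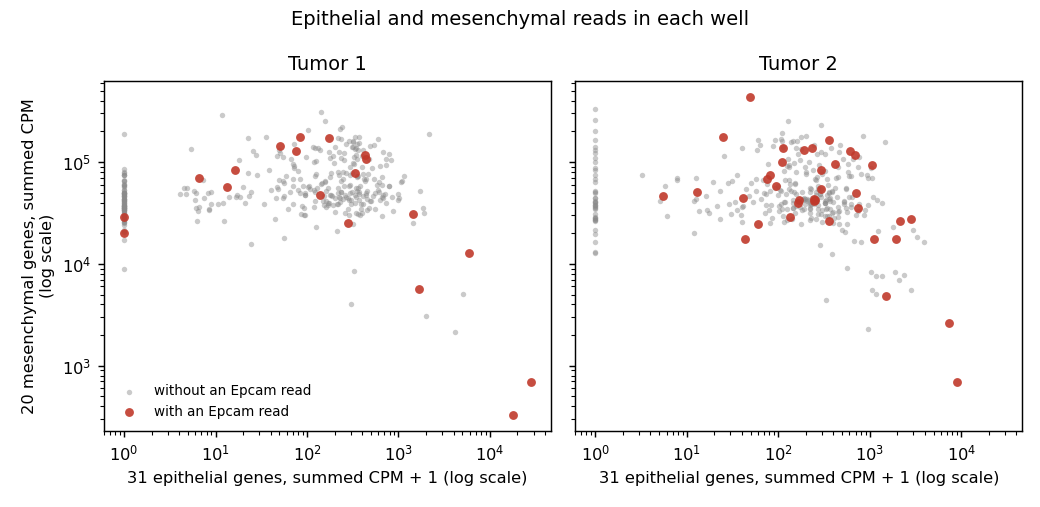
Summed CPM of 31 epithelial genes plus 1 (x, log axis) against summed CPM of 20 mesenchymal genes (y, log axis) in each of the 717 wells, by tumor and by Epcam. Most wells with Epcam lie among the wells without, and a few, P7, K10 and K4 among them, lie at high epithelial and low mesenchymal sums.

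Genes of the CAF types were not spread evenly over the groups. The median sum of 12 mural genes was 3022 CPM in wells with Epcam and 23899 CPM in wells without in tumor 1, and 9923 and 22029 CPM in tumor 2. Kcnj8, a potassium channel subunit of mural cells, was read in 57.9% and 81.3% of wells in tumor 1 and 67.6% and 80.6% in tumor 2, and its summed level was 296 and 1322 CPM and 881 and 1501 CPM. Rgs5, a regulator of G-protein signaling in mural cells, was at 3802 and 8474 CPM in tumor 1 and 5419 and 7420 CPM in tumor 2. Of these 12 genes, 8 were read less often in wells with Epcam in both tumors and 0 more often. The median sums of the matrix fibroblast genes were 1935 and 1888 CPM in tumor 1 and 2014 and 1676 CPM in tumor 2, and their upper quartiles were 22813 and 6098 CPM and 13482 and 7353 CPM. The developmental CAF genes had medians of 1227 and 101 CPM in tumor 1 and 252 and 121 CPM in tumor 2, and 10 of these 11 genes were read more often in wells with Epcam in both tumors.

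Each well was also placed by which of the mural, matrix and developmental lists had the highest mean log2(RPKM + 1) in it, a range of a score and not a cell type, with 14 wells within 0.5 of the next list. The mural list led in 42.1% of wells with Epcam and in 264 of 352 wells without in tumor 1, and in 54.1% and 71.8% in tumor 2. The matrix list led in 36.8% and 23.6% in tumor 1 and in 35.1% and 23.6% in tumor 2. The developmental list led in 21.1% (6.05 to 45.6) and 1.42% (0.46 to 3.28) in tumor 1, and in 10.8% (3.03 to 25.4) and 4.53% (2.50 to 7.49) in tumor 2. The 4 such wells with Epcam of tumor 1 included P7, F14 and K10, and the 4 of tumor 2 included K4 and B4. All of these named wells held at least 10 epithelial genes. A fit with the leading list as a term therefore also partly sets the epithelial-rich wells apart. Wells with Epcam were thus drawn from the 3 ranges in other proportions than the wells without, and the part of this in the comparisons above was not tested.

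Cell cycle genes were read at lower summed levels in wells with Epcam, but not in fewer wells throughout. Of the 10 genes, 9 were read less often in wells with Epcam in tumor 1 and 4 in tumor 2, where 6 were read more often, and 3 were read less often in both. At least 1 of them was read in 9 of 19 wells with Epcam and 172 of 352 without in tumor 1, and in 20 of 37 and 157 of 309 in tumor 2. Top2a, a topoisomerase of dividing cells, was read in 0 of 19 wells with Epcam in tumor 1 (0 to 17.6) and in 13.6% of wells without, while the shares of tumor 2 were 8.11% and 17.8%. Wells with more than 1000 CPM over the 10 cell cycle genes were 0 of 19 with Epcam (0 to 17.6) and 29 of 352 without (8.24%; 5.59 to 11.6) in tumor 1, and 1 of 37 (2.70%; 0.068 to 14.2) and 21 of 309 (6.80%; 4.26 to 10.2) in tumor 2. These shares were not tested. Of the cell types that the sort was to remove, the defining markers Pecam1 and Cdh5 of endothelium and Ptprc of blood cells were each read in at most 1 well of each group, but other genes of these lists were read. The endothelial list had a median of 0 CPM in wells with Epcam and 631 CPM in wells without in tumor 1, and of 217 and 711 CPM in tumor 2. Its 3 most abundant genes by CPM were Esam, Flt1 and Emcn, which stood at 413, 220 and 109 CPM in the summed wells with Epcam of tumor 2 and at 487, 207 and 137 CPM in the wells without, and at 165, 79.6 and 17.6 CPM against 496, 181 and 77.6 CPM in tumor 1. At least 1 of the 12 immune genes was read in all but 13 of the 19 wells with Epcam of tumor 1 and all but 28 of the 37 of tumor 2, and in all but 312 of 352 and 278 of 309 wells without. The part of these transcripts in the comparisons was not tested.

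To test single genes with the tumor as replicate, reads were summed over the wells with and the wells without Epcam of each tumor, giving 4 libraries of 4207920 and 78090026 reads for tumor 1 and 7303504 and 65016687 reads for tumor 2. Epcam was left out of the test. With edgeR's quasi-likelihood test and Benjamini-Hochberg adjustment, 0 of 11730 genes were higher and 0 lower at an adjusted p of 0.05, a background of 0% in each direction, and 842 genes had an unadjusted p below 0.05, 373 higher and 469 lower. A fit that blocked on the tumor also called 0 and 0, and 634 genes had an unadjusted p below 0.05. DESeq2's Wald test, which carries the same 4 libraries, called 91 genes higher (0.776%) and 97 lower (0.827%), and 1050 genes had an unadjusted p below 0.05. The direction of single genes below is thus given with its standard error and was not past the threshold of the edgeR test.

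By DESeq2, 12 of the 18 epithelial genes that passed the level filter (mean RPKM no lower than 1 across 717 wells) were called higher and 0 lower, against the background of 0.776%. Of these 18 genes, 7 passed the filter only through the wells with Epcam and had to differ; of the 11 that pass without those wells, 8 were called higher. In the edgeR fit Cldn3 was 4.41 ± 1.02 log2 higher (SE of the fit to 4 libraries from n = 2 tumors), with 5.85 in tumor 1 and 2.24 in tumor 2. Krt8 was at 4.57 ± 1.16 (5.42 and 2.25), and Spint2, a serine protease inhibitor of epithelia, at 2.82 ± 0.61 (3.88 and 1.66). This SE comes from the fit without a block and is not the spread between the tumors. The DESeq2 adjusted p-values of Cldn3, Krt8 and Spint2 were 0.000235, 0.00153 and 0.00168, and their edgeR adjusted p-values ran from 0.589 to 0.601. Cdh1 was at 3.81 ± 1.04 (4.85 and 1.75), but it is one of the 7 genes that passed only through the wells with Epcam. Without the wells with at least 10 epithelial genes, the edgeR difference of Cldn3 was 1.81, of Spint2 0.42, of Cdh1 1.23 and of Krt8 -0.48.

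The median log2 difference of the epithelial list depended on the level filter. With no filter it was 3.58 over all 31 genes, beside -0.14 over all genes, and over the 18 genes that passed the filter it was 3.07, beside -0.01. Over the 11 genes that pass on the wells without Epcam alone it was 2.82, with 4.02 in tumor 1 and 1.58 in tumor 2, so these medians describe the list and no test was made of them. The wells with at least 10 epithelial genes, 3 of 19 and 3 of 37, held 79.2% and 24.9% of the epithelial reads of the wells with Epcam, and without such wells the median was 0.38 over the 18 genes and 0.42 over the 11. With the leading list of a well as a term it was 1.70 over the 18. The median of the 7 regulators that passed the filter was 1.20 (3.15 and 0.34), and that of the 5 that pass without the wells with Epcam was 0.79 (3.15 and -0.59). Ehf was called higher by DESeq2.

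Of the 11 milk genes that passed the level filter, 1 of them only through the wells with Epcam, DESeq2 called 3 higher and 0 lower, beside 0.776% and 0.827% of all genes: Wfdc18 with 4.31 ± 0.88 in the edgeR fit and a DESeq2 adjusted p of 3.29e-07, Lcn2 with 2.52 ± 0.64 and Trf with 1.13 ± 0.27. The list's median was 2.04, with 1.61 in tumor 1 and 1.12 in tumor 2, and over the 10 genes that pass without the wells with Epcam it was 1.86 (1.89 and 0.90). Csn3, at 2.35 ± 1.13, was not called by edgeR or by DESeq2. Without the wells with at least 10 epithelial genes Wfdc18 was at 0.87, Lcn2 at 1.20 and the list's median at 0.87.

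No mesenchymal or mural gene was called by edgeR or DESeq2. Medians were 0.19 for the mesenchymal genes (0.07 in tumor 1 and 0.31 in tumor 2) and -0.68 for the mural genes (-1.27 and -0.30). Rgs5 was at -0.73 ± 0.26, Pdgfrb at -0.68 ± 0.25 and Col1a1 at 0.63 ± 0.29, where a positive value is a higher level in wells with Epcam. With the leading list as a term, which the mural list helps to set, Rgs5 was at -0.29. The cell cycle genes had a median of -3.08 (-6.70 and -2.86), and DESeq2 called 5 of them lower, Ccnb1, Ccnb2, Birc5, Top2a and Cdk1, which act in mitosis, beside 0.827% of all genes. With the leading list as a term, the list's median was -2.27, Cdk1 went from -2.48 to -0.71, Top2a from -4.65 to -3.20 and Mki67, a proliferation marker, from -2.11 to -1.91. Top2a was at -4.65 ± 1.31, but it was among 4 of the 10 genes with 0 reads in the wells with Epcam of tumor 1, so this size and the median of tumor 1 depend on the prior count. Beside 0.776% of all genes, DESeq2 also called higher 2 of 12 matrix genes, Fbln2, a fibulin, and Lox, which crosslinks collagen, and 2 of 11 developmental CAF genes, Fxyd6 and Cp. With the leading list as a term Fbln2 was at 0.04, Lox at 0.76, Fxyd6 at 0.96 and Cp at 0.04. These genes belong to lists that set the leading list, so part of any such change is built in. The medians of the remaining lists were 0.66 for matrix fibroblast genes, 1.15 for developmental CAF genes, 1.62 for basal genes (-0.07 with the tumor as a block), -0.11 for mesenchymal transition regulators, -0.70 for endothelial genes, 1.01 for immune genes and 0.07 for immediate early genes, and no adipocyte gene passed the level filter. Of these lists, the basal, developmental CAF, immune and immediate early genes had medians of opposite sign in the 2 tumors. In the summed wells with Epcam, 6 of 9 basal genes had 0 reads in tumor 2 and 2 of 4 immune genes had 0 in tumor 1.

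Outside the lists, 10 genes were named in each direction by their lowest p, and none had an edgeR adjusted p below 0.486. Of the 10 higher genes, 9 in tumor 1 and 5 in tumor 2 had over 50% of their reads in wells with Epcam from a single well. Cxcl9, an interferon-induced chemokine, was at 96.96 CPM in wells with Epcam and 2.10 CPM in wells without in tumor 1, and at 122 and 3.05 CPM in tumor 2, a log2 difference of 5.47 ± 0.37, and in tumor 1 its reads in wells with Epcam came from 1 well, F12. Mmp13, a collagenase, was at 2.27 ± 0.19, but at 0.12 with the leading list of a well as a term, and 94.7% of its reads in wells with Epcam of tumor 2 came from well G9. Plet1 was at 4.49 ± 0.61, but at 0.88 without the wells with at least 10 epithelial genes, and P7 held 78.4% of its reads in tumor 1 and K4 held 51.5% in tumor 2. The others were 1500015O10Rik, Clmp, Insl6, Prokr2, Fbxl22, Clu and Arrdc3, with log2 differences from 1.22 to 3.05. With the leading list as a term, Fbxl22 turned from 2.85 to -0.52, and the other six lay from 0.31 to 1.71.

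Of the 10 lower genes, Kif20a, Trip13, Spc25, Shcbp1, Ncapg and Racgap1 act in cell division. Among the 10, 3 in tumor 1 and 6 in tumor 2 had over 50% of their reads in wells with Epcam from a single well. In each tumor 5 of them had at most 4 reads in those wells. Kif20a, a mitotic kinesin, had 2 reads in wells with Epcam and 1928 in wells without in tumor 1, and 4 and 1223 in tumor 2, and Racgap1, which acts in cytokinesis, had 22 and 3239 and 16 and 3076. Cxcl10, like Cxcl9 an interferon-induced chemokine, had 0 reads in wells with Epcam and 2625 in wells without in tumor 1, and 1 and 2358 in tumor 2, the opposite direction to Cxcl9. A single well held 82.2% and 97.1% of the Cxcl10 reads of the wells without. Cacna2d1, a calcium channel subunit, was at -1.46 ± 0.21, Ptprk, a receptor phosphatase, at -1.53 ± 0.23, and Dctn4, a dynactin subunit, at -1.25 ± 0.20. With the leading list as a term these were at -0.76, -0.66 and -1.32, and Spc25 moved from -3.17 to -0.83.

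When wells were thinned to 10000 reads before they were summed, edgeR called 4 genes higher and 0 lower of 11692 (0.0342%): Plet1, Wfdc18, Mmp13 and Spint2.

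The ratio of reads outside the spike-ins to ERCC reads, a relative measure of RNA per well since a set amount of ERCC was added to each lysate, had no common direction in the 2 tumors. Its median was 6.46 in wells with Epcam and 6.73 in wells without in tumor 1, and 8.62 and 8.12 in tumor 2. The ratio of the medians was thus 0.960 and 1.06, with a mean of 1.01 ± 0.07 (SD, n = 2 tumors). At 5 or more Epcam reads it was 1.94 in tumor 1 and 0.999 in tumor 2. The 2 tumors lay on opposite sides of 1, and an exact paired permutation test cannot go below p = 0.5. Without the wells with at least 10 epithelial genes, the medians were 9.003 and 6.73 in tumor 1 and 8.11 and 8.04 in tumor 2. The tumor 1 ratio thus depended on which wells were kept, but not on those few wells alone. The tumor 1 wells with 1 to 4 Epcam reads, K10 among them, had a median of 3.16. The value of 1.94 at 5 or more Epcam reads was reached with P7 and F14 kept. P7 and K10 had ratios of 2.62 and 1.38, while K4 and B4 of tumor 2 had the 2 highest of all.

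**Figure D4:**
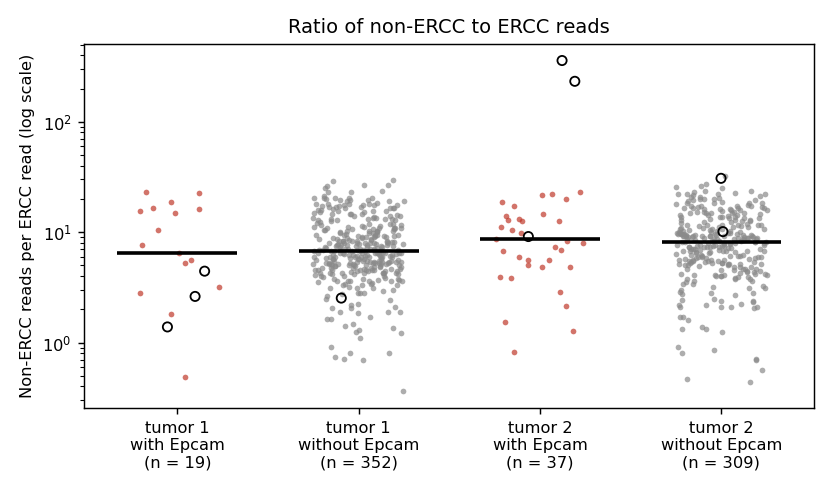
Ratio of reads outside the spike-ins to ERCC reads per well (log axis) by tumor and Epcam; bars are medians and open circles are wells with at least 10 of 31 epithelial genes. The medians of 6.46, 6.73, 8.62 and 8.12 lie close together, and K4 and B4 lie far above the other wells.

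The wells with Epcam were scattered over the plates. They lay in 11 of 16 rows and 14 of 24 columns in tumor 1 and in 15 of 16 rows and 20 of 24 columns in tumor 2. Of the wells that shared a row or a column with the well of most Epcam, P7 in tumor 1 and K4 in tumor 2, 2 of 37 (5.41%) and 1 of 32 (3.13%) held an Epcam read, against 16 of 333 (4.805%) and 35 of 313 (11.2%) of the other wells. These shares come from few wells and were not tested.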

How the data were processed

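The authors sorted single cells into plates, made Smart-seq2 libraries with ERCC spike-ins, aligned the reads to mm10 and deposited whole-read counts and RPKM values per RefSeq gene and well. The deposited counts were used for shares, sums and tests, and the deposited RPKM values, which the authors normalized by gene length and mapped reads, for levels, the gene filter and the leading list of a well. The tables hold 24490 genes and 92 spike-ins, and 2 listed genes are not in them. Passing wells held 10281 to 838772 reads in tumor 1 and 11175 to 1190516 in tumor 2.

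Counts were summed per tumor and Epcam state and fitted with edgeR 4.0.16 (TMM, quasi-likelihood, R 4.3.3) without a block, over genes whose mean RPKM reached 1. The standard error was the log2 difference over the square root of F in this fit, and does not measure the spread between tumors. DESeq2 1.42.0, the tumor as a block, other filters, thinning, other Epcam thresholds and sets of wells were alternatives. Both libraries of a tumor derive from 1 animal and are therefore paired; their deviations from the group means had a correlation of 0.12 over 11730 genes. On simulated counts with the design of the edgeR fit, 20 of 100 genes changed 4-fold and 100 of 100 changed 32-fold were recovered, and 4 of 11529 unchanged genes were called. The simulation gave all genes the same dispersion (0.2178), with no difference between tumors and no reads gathered in single wells. Only more abundant genes were changed in it, so its recovery need not hold for genes whose reads come from few wells. DESeq2 was not run on the simulated counts.

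The members and all 14 gene lists were chosen with earlier results of these data known. Named by rule were Epcam, list genes past the threshold, the 3 most abundant genes of each list by CPM, and outside the lists the 10 genes of lowest p in each direction; Krt8, Krt18, Cldn3, Cldn4, Cdh1, Spint2, Ehf, Gata3, Wfdc18, Kcnj8, Vim and other list genes in the text, and the single wells, were chosen after their values had been seen.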

Additional observations from a re-analysis of the deposited data

Results flagged for a closer look

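For 4 gene lists, over the genes that passed the level filter, and for the spike-in ratio, the 2 tumors gave opposite directions; the epithelial regulators did so only over the 5 genes that pass without the wells with Epcam (3.15 and -0.59). Each tumor gives 1 value, so the difference between tumors was not tested. The median log2 difference (wells with Epcam minus wells without) of the basal and myoepithelial genes was 1.34 in tumor 1 and -0.37 in tumor 2, and F14 of tumor 1 was the single well with Epcam in which Krt5 or Krt14 was read. For the developmental CAF genes it was 1.59 and -0.38, although 10 of these 11 genes were read in a larger share of wells with Epcam in both tumors. For the immune genes it was -1.64 and 1.01, and for the immediate early genes 0.021 and -0.032, both small. In the summed wells with Epcam, 6 of 9 basal genes had 0 reads in tumor 2 and 2 of 4 immune genes had 0 in tumor 1. The basal median of tumor 2 and the immune median of tumor 1 thus depend on the prior count. The ratio of the median non-ERCC to ERCC ratios was 0.960 in tumor 1 and 1.06 in tumor 2.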

How the results depend on the processing

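With the tumor as a block, edgeR called 0 genes higher and 0 lower, and the median of the epithelial genes was 3.31, of the milk genes 1.91, of the mural genes -0.78 and of the cell cycle genes -3.75, so the pairing changed no call. DESeq2 called 91 genes higher and 97 lower, and edgeR on wells thinned to 10000 reads called 4 higher. The epithelial median was 1.70 with the leading list of a well held fixed, 1.71 at 1 to 4 Epcam reads, 2.27 without the well of most Epcam reads and 0.38 without wells of at least 10 epithelial genes, an alternative chosen after seeing the data like that without wells of ratios over 100. The milk median was 1.61 with no filter, 2.85 after thinning, 2.72 at 5 or more Epcam reads, 2.81 at an Epcam RPKM of at least 10, 1.67 without the well of most Epcam reads, 1.505 without wells of ratios over 100, 0.87 without wells of at least 10 epithelial genes and 1.37 with the leading list held fixed. It reversed to -0.97 at 1 to 4 Epcam reads, where the medians of the epithelial regulators (-1.83), developmental CAF genes (-2.79), basal genes (-10.39) and immune genes (-8.83) also turned negative. In that setting 6 of 9 basal, 4 of 4 immune, 5 of 11 developmental CAF, 3 of 11 milk and 2 of 7 regulator genes had 0 reads in the wells with Epcam of both tumors, so the sizes of these medians depend on the prior count. Of the 18 epithelial genes, 4 had 0 reads there in both tumors and 11 in at least 1 tumor. Those wells also included K10, with 16 of the 31 epithelial genes. With the leading list held fixed, the medians of the matrix (-0.22), basal (-1.56) and immediate early genes (-0.23) turned negative and that of the developmental CAF genes was 0.14. The matrix and developmental lists help to set the leading list, so part of their change is built in. The basal median was also negative without wells of at least 10 epithelial genes (-0.57) and with the tumor as a block (-0.07), and that of the immediate early genes after thinning (-0.12), at 5 or more Epcam reads (-0.10) and at an Epcam RPKM of at least 10 (-0.04). For the milk genes, leaving out either tumor gave 1.12 to 1.61. Leaving out either tumor gave -6.70 to -2.86 for the cell cycle genes.

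The share of wells with Epcam in tumor 1 was 2.70% at an RPKM of at least 10, and in tumor 2 it was 6.94% both at 5 reads and at that RPKM. Here the threshold also applied to each gene read. At least 3 epithelial genes were then found in 5.40% and 3.98% of wells without Epcam in tumor 1 (5.65% thinned) and in 12.9% and 11.3% in tumor 2 (15.8% thinned). Csn3 was found in 20.5% and 20.7% of wells without in tumor 1 and in 44.98% and 47.6% in tumor 2 (49.3% thinned). The ratio of median spike-in ratios in tumor 1 was 1.94 at 5 or more Epcam reads, 1.20 in matrix-led wells and 1.34 without wells of at least 10 epithelial genes. In tumor 2 it was 1.23 as a ratio of log2 means, 1.15 at 100000 to 300000 reads, 1.16 in mural-led wells and 0.827 in matrix-led wells. The mural median ranged from -1.27 to -0.30 and the mesenchymal from 0.07 to 0.31. With 2 tumors and 19 and 37 wells, summed values of low genes rest on single wells.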
